A study of Mus musculus with 8 samples.

Results

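The 9 B cell genes Ms4a1, Cd79a, Cd79b, Pax5, Blk, Cr2, Fcer2a, Bank1 and Cd22 were followed in RNA-seq of whole mouse aortas. They were picked by name, as the rows of the deposited table that carry their symbols, and are 9 of 48607 loci in that table. For a symbol found on more than 1 locus, that with the largest summed count was taken. The study asked how loss of the natriuretic peptide clearance receptor NPRC, encoded by Npr3, changes the atherosclerotic aorta. It compared ApoE-/- mice, which lack apolipoprotein E and develop plaques, with ApoE-/-NPRC-/- mice, in which a CRISPR frameshift in the first exon of Npr3 was combined with the ApoE deletion. Both genotypes were on a C57BL/6 background, both lacked apolipoprotein E, and both were fed a Western diet for 12 weeks. The knockout was present in every cell of the animal, and each library held all cell types of the vessel.

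By title, 5 libraries were ApoE-/- and 3 were ApoE-/-NPRC-/-. The genotype entered for each sample matched its title in 4 libraries and contradicted it in 4. ApoE-/- 4 and 5 were entered as ApoE-/-NPRC-/-, while ApoE-/-NPRC-/- 1 and 2 were entered as ApoE-/-. The column names of the deposited table follow the titles. Each comparison was therefore made both by title and by genotype entry. The Npr3 level could not decide between the labels, since a frameshift leaves a transcript to be read and Npr3 lay between 0.62 and 1.69 FPKM in the 5 libraries titled ApoE-/- and between 1.13 and 1.39 FPKM in the other 3. Library totals ran from 62969165 to 86693276 counts. 

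B cells recognise antigen through a surface immunoglobulin that signals through the paired chains CD79A and CD79B. The complement receptor encoded by Cr2 lowers the threshold of this receptor, while CD22, a sialic acid-binding receptor, restrains it. Pax5 is the transcription factor that holds cells in the B lineage. In atherosclerosis, B cells are found mostly in the outer layer of the artery and in lymphoid tissue around it, while few are found in the intima.

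The B cell genes were expressed at low levels in these aortas, and ApoE-/- 2 was the highest library for 8 of the 9. Over the 8 libraries, the median level per gene lay between 0.105 FPKM for Ms4a1 and 2.105 FPKM for Cd22 (FPKM: the authors' fragment counts divided by transcript length in kilobases and by library size). In ApoE-/- 2, Cd79b reached 8.71 FPKM, Cd79a 4.07 FPKM and Cd22 3.58 FPKM. Cr2, Blk, Bank1, Ms4a1 and Pax5 followed in that library with 2.33, 2.26, 2.05, 1.76 and 1.62 FPKM, and Fcer2a was last with 0.68 FPKM. ApoE-/- 2 was the highest library for 15.3% of the 31983 loci with a mean count of at least 10, the loci that were tested. Its total of 67039577 counts was the second lowest, and its median share of a tested locus's summed CPM (counts scaled to the library total) was 12.4%, against 12.5% for an even share among 8 libraries.

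**Figure D1:**
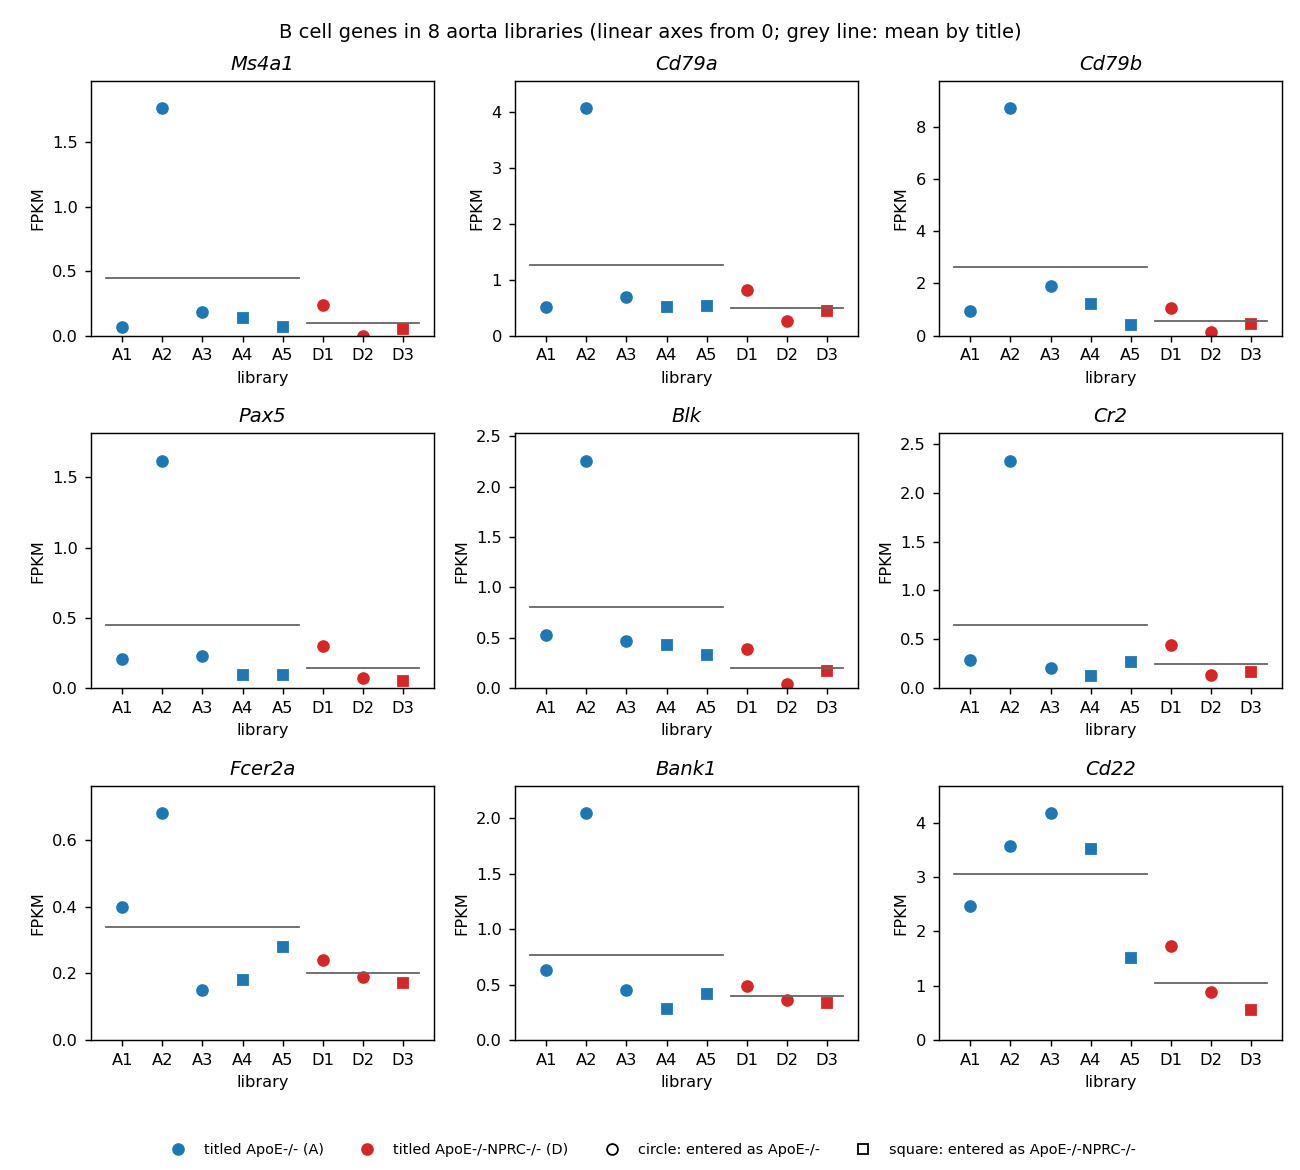
Level of each B cell gene in FPKM (linear axis from 0) in the 5 libraries titled ApoE-/- (A1 to A5, blue) and the 3 titled ApoE-/-NPRC-/- (D1 to D3, red); marker shape gives the genotype entry and the grey line the mean by title. In 8 panels A2 is the highest point, and in the panel of Cd22 the highest is A3 with 4.18 FPKM.

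The signalling chains of the B cell receptor showed the pattern clearly. Cd79a, located at 24897381 to 24902197 of chromosome 7 (plus strand; GRCm38, GENCODE M21), was measured at 0.51, 4.07, 0.69, 0.52 and 0.54 FPKM in ApoE-/- 1 to 5, and at 0.81, 0.26 and 0.44 FPKM in ApoE-/-NPRC-/- 1 to 3. Apart from ApoE-/- 2, the 7 libraries lay between 0.26 and 0.81 FPKM and the groups overlapped. Cd79b, located at 106311341 to 106314762 of chromosome 11 (minus strand), was measured at 0.93, 8.71, 1.89, 1.21 and 0.40 FPKM in ApoE-/- 1 to 5 and at 1.06, 0.15 and 0.43 FPKM in ApoE-/-NPRC-/- 1 to 3. Its lowest library was ApoE-/-NPRC-/- 2, with 17 counts, and its second highest was ApoE-/- 3. ApoE-/- 2 held 51.6% of the CPM of Cd79a summed over the 8 libraries and 58.8% of that of Cd79b.

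Ms4a1 encodes CD20, the membrane protein targeted by B cell-depleting antibodies, and is located at 11249675 to 11266241 of chromosome 19 (minus strand). It had the steepest distribution of the 9. Its counts were 47, 878, 113, 89 and 38 in ApoE-/- 1 to 5 and 156, 0 and 31 in ApoE-/-NPRC-/- 1 to 3. The 878 counts of ApoE-/- 2 were 69.8% of its summed CPM, and its CPM there was 22.4 times the median of the other 7 libraries. In ApoE-/-NPRC-/- 2, 0 of 62969165 counts allow a level of up to 0.0476 CPM, for counting error alone. ApoE-/-NPRC-/- 1 was the second highest library, so the titled groups overlapped.

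Pax5, located at 44524757 to 44710487 of chromosome 4 (minus strand), was measured at 0.21, 1.62, 0.23, 0.09 and 0.09 FPKM in ApoE-/- 1 to 5 and at 0.30, 0.07 and 0.05 FPKM in ApoE-/-NPRC-/- 1 to 3. The 3 libraries entered as ApoE-/-NPRC-/-, namely ApoE-/- 4 and 5 and ApoE-/-NPRC-/- 3, had 0.09, 0.09 and 0.05 FPKM, but ApoE-/-NPRC-/- 2, entered as ApoE-/-, lay among them with 0.07 FPKM. Blk, a Src-family kinase of B cells on chromosome 14 from 63372836 to 63417037 (minus strand), was measured at 0.53, 2.26, 0.47, 0.43 and 0.33 FPKM in ApoE-/- 1 to 5 and at 0.39, 0.04 and 0.17 FPKM in ApoE-/-NPRC-/- 1 to 3. For Blk the 2 lowest libraries were ApoE-/-NPRC-/- 2, with 8 counts, and ApoE-/-NPRC-/- 3, with 49.

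Cr2, located at 195136811 to 195176716 of chromosome 1 (minus strand), encodes complement receptors that are also carried by follicular dendritic cells. Its level was 0.29, 2.33, 0.20, 0.12 and 0.27 FPKM in ApoE-/- 1 to 5 and 0.44, 0.13 and 0.16 FPKM in ApoE-/-NPRC-/- 1 to 3. The second highest library was again ApoE-/-NPRC-/- 1, and the lowest was ApoE-/- 4. Bank1, a scaffold protein of B cell receptor signalling (chromosome 3, 136053363 to 136326066, minus strand), ranged from 0.28 FPKM in ApoE-/- 4 to 2.05 FPKM in ApoE-/- 2. Fcer2a, the low-affinity IgE receptor CD23 (chromosome 8, 3681737 to 3694175, minus strand), ranged from 0.15 FPKM in ApoE-/- 3 to 0.68 FPKM in ApoE-/- 2. These genes were the least uneven after Cd22, with ApoE-/- 2 at 40.6% of the summed CPM of Bank1 and 29.5% of that of Fcer2a. Bank1 counts were spread over 7 loci of the table, of which the one used held 58.0%, and Pax5 counts over 2 loci, of which the one used held 72.5%.

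Cd22, located at 30865251 to 30880342 of chromosome 7 (minus strand), had another order of libraries. It was measured at 2.47, 3.58, 4.18, 3.52 and 1.52 FPKM in ApoE-/- 1 to 5 and at 1.74, 0.88 and 0.56 FPKM in ApoE-/-NPRC-/- 1 to 3. ApoE-/- 3 was the highest, ApoE-/- 2 and 4 came next and were nearly level, and ApoE-/-NPRC-/- 2 and 3 were the lowest. The titled groups overlapped because ApoE-/-NPRC-/- 1 exceeded ApoE-/- 5. ApoE-/- 2 held 19.4% of the summed CPM of Cd22.

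For 8 genes, the CPM of ApoE-/- 2 exceeded the next highest library by 1.65 times (Fcer2a) to 7.28 times (Ms4a1). For 7 of them, it was more than 4 times the median of the other 7 libraries, from 4.85 times (Bank1) to 22.4 times (Ms4a1), a rule met by 1.70% of tested loci. For Fcer2a the fold over that median was 3.58 and for Cd22 it was 2.05. These folds describe the libraries and were not tested, because ApoE-/- 2 was set apart after its values were seen.

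RefSeq promoter windows of 300 bases, 250 before and 50 after the annotated start, were present for 6 of the 9 genes, namely Cr2, Bank1, Pax5, Cd79a, Cd22 and Fcer2a. Those of Cd79a and Cr2, which were highest in ApoE-/- 2, are shown beside that of Cd22, which was not. Capitals mark the E-box CAGGTG, the letters bound by E2A proteins, or its reverse complement CACCTG. The windows are read 5′ to 3′ on the strand of the gene in GRCm38.p6, at chr7:24897247-24897546 (plus strand) for Cd79a, chr1:195176670-195176969 (minus strand) for Cr2 and chr7:30878979-30879278 (minus strand) for Cd22.
Cd79a: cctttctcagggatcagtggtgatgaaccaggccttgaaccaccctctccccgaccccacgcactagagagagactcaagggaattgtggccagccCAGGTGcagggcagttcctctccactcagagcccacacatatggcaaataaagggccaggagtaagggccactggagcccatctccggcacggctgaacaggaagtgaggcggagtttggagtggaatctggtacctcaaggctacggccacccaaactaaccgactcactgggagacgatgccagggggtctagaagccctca
Cr2: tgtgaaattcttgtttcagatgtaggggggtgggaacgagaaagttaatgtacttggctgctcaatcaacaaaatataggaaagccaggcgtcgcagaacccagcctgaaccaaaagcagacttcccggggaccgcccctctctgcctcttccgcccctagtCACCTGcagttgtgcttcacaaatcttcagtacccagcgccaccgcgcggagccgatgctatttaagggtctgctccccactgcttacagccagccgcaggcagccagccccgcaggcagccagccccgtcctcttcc
Cd22: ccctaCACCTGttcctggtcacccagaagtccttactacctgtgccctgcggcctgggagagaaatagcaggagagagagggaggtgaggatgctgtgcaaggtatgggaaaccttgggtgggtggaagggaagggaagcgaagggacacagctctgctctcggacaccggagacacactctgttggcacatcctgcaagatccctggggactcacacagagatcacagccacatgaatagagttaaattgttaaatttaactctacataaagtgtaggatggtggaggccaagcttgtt
Each of these windows held 1 match, which began 154 bases before the start in Cd79a, 88 in Cr2 and 245 in Cd22. The 6 genes had 8 windows, of which 5, from 5 genes, held a match, against 20.2% of the 32851 mouse windows. The core of the motif bound by EBF1, CCCNNGGG (its own reverse complement), was present in 2 of the 8 windows, from Bank1 and Cd22. It was present in 13.7% of all windows. The octamer ATGCAAAT was found on either strand in 1.74% of windows and in 0 of the 6 genes. The matches did not separate Cd22 from the other genes. The starts used by RefSeq for Cd79a and Cd22 lie inside the GENCODE spans of these genes.

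By title, Cd22 was the gene called lower in ApoE-/-NPRC-/- aortas, and the other 8 had negative but imprecise fold changes. A gene was called under the rule of the study, a fold above 2 or below 0.5 with an unadjusted p under 0.05, here from the quasi-likelihood test of edgeR. Cd22 averaged 3.05 ± 1.06 FPKM (SD, n = 5) in libraries titled ApoE-/- and 1.06 ± 0.61 FPKM (SD, n = 3) in those titled ApoE-/-NPRC-/-. Its log2 fold change was -1.54 ± 0.45 (standard error), with an unadjusted edgeR p of 0.00747 and an adjusted p of 0.275 over the 31983 loci. Of all tested loci, 5.41% were called, 3.74% as lower, so that 1 call among 9 genes is to be read against those shares. In edgeR 0 of the 9 genes had an adjusted p under 0.05 and 1 had an unadjusted p under 0.05, while DESeq2 gave 1 and 3 and limma on log2(FPKM + 1) gave 0 and 1. Over all tested loci these counts were 0 and 4121 in edgeR, 1030 and 4972 in DESeq2, and 3 and 4046 in limma. In that limma fit Cd22 missed the fold limit, with a log2 fold change of -0.97.

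Blk and Cd79b stood just outside the call. Blk averaged 0.804 ± 0.817 FPKM (SD, n = 5) against 0.2 ± 0.177 FPKM (SD, n = 3), with a log2 fold change of -1.94 ± 0.86 and an unadjusted edgeR p of 0.0501. Cd79b averaged 2.63 ± 3.44 FPKM (SD, n = 5) against 0.547 ± 0.466 FPKM (SD, n = 3), with a log2 fold change of -2.23 ± 1.05 and an unadjusted edgeR p of 0.0625. For both genes the SD of the ApoE-/- group exceeded its mean. For the remaining genes, the log2 fold changes lay between -2.17 for Ms4a1 and -0.70 for Fcer2a, with unadjusted edgeR p values from 0.156 to 0.206. The 9 log2 fold changes were below 0, as were 51.0% of those of the tested loci, and their median was -1.54, against -0.01 over the tested loci. The 9 genes share the same libraries and are not independent replicates.

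The size of these differences depended on ApoE-/- 2, except for Cd22. Without that library the median log2 fold change of the 9 genes by title was -0.29. Cd79a went from -1.27 ± 0.82 to -0.15 ± 0.40, Pax5 from -1.63 ± 1.09 to -0.14 ± 0.65, and Cr2 from -1.35 ± 0.99 to 0.16 ± 0.46. Blk and Cd79b kept log2 fold changes of -1.11 ± 0.64 and -1.05 ± 0.72, with unadjusted edgeR p values of 0.122 and 0.181. Cd22 had -1.50 ± 0.49, was again the 1 gene called, and had an unadjusted edgeR p of 0.0154, while 4.58% of all loci were called in that fit. 

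**Figure D2:**
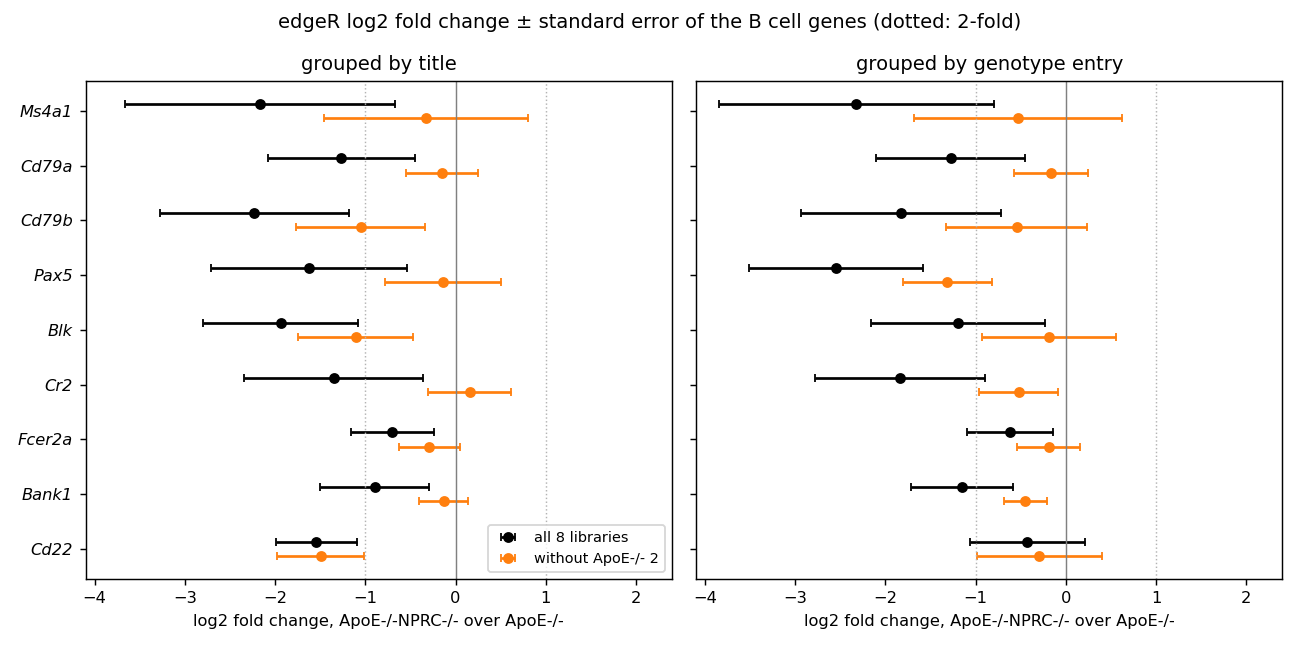
Log2 fold change of ApoE-/-NPRC-/- over ApoE-/- for each B cell gene with its standard error (bars), by title (left) and by genotype entry (right), in all 8 libraries (black) and without ApoE-/- 2 (orange); the dotted lines mark a 2-fold change. By title Cd22 lies at -1.54 with and -1.50 without ApoE-/- 2, whereas Cd79a, Pax5, Cr2 and Bank1 lie within 0.16 of 0 without it.

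By genotype entry, a different gene was called. Pax5 averaged 0.486 ± 0.639 FPKM (SD, n = 5) in libraries entered as ApoE-/- and 0.0767 ± 0.0231 FPKM (SD, n = 3) in those entered as ApoE-/-NPRC-/-. Its log2 fold change was -2.55 ± 0.96, with an unadjusted edgeR p of 0.0273 and an adjusted p of 1.0. By this label 1.22% of tested loci were called, 0.463% as lower. Pax5 was called without ApoE-/- 2 as well, with -1.31 ± 0.49 and an unadjusted edgeR p of 0.0292, in a fit that called 1.10% of loci. It was not called when ApoE-/- 4, ApoE-/- 5 or ApoE-/-NPRC-/- 3 was left out, each of which leaves 2 libraries in that group.

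Cd22 had a log2 fold change of -0.43 ± 0.64 by genotype entry, with an unadjusted edgeR p of 0.523. Its high libraries ApoE-/- 3 and 4 then fell in different groups. The 9 fold changes were again below 0, as were 50.8% of all loci, and their median was -1.28 with ApoE-/- 2 and -0.45 without it. With 0 genes at an adjusted edgeR p under 0.05 and 1 at an unadjusted p under 0.05, DESeq2 gave 0 and 3 and limma on log2(FPKM + 1) gave 0 and 0. Over all tested loci these counts were 0 and 621 in edgeR, 32 and 781 in DESeq2, and 0 and 557 in limma. Whether the fold change of Cd22 or Pax5 differed between the labels was not tested.

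The groups of libraries overlapped for each of the 9 genes under both labels, whereas 7.46% of tested loci did not overlap by title and 1.35% by genotype entry. In a two-sided exact permutation test of the mean log2 CPM of 5 against 3 libraries, whose smallest possible p is 0.0357, Blk and Cd22 had the smallest p by title, 0.0714 each. By genotype entry, the smallest was 0.107, for Pax5 and Bank1. These exact p values are not adjusted. In whole-tissue RNA, fewer cells of a type and less RNA per cell cannot be told apart.

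Apart from ApoE-/- 2, Ms4a1, Cd79a, Cd79b, Pax5 and Blk still varied together, and Cr2, Bank1 and Fcer2a did so less closely. The Pearson correlation of each gene with the mean standardised log2 CPM of the other 8 was 0.953 for Cd79a, 0.949 for Pax5, 0.936 for Cd79b, 0.919 for Blk and 0.885 for Ms4a1 over the 8 libraries. Over the 7 libraries without ApoE-/- 2 it was 0.819, 0.858, 0.802, 0.876 and 0.824. It went from 0.895 to 0.680 for Cr2, from 0.876 to 0.578 for Bank1 and from 0.748 to 0.272 for Fcer2a. Among those 7, the mean standardised level of the 8 genes without Cd22 was highest in ApoE-/-NPRC-/- 1 (0.205) and lowest in ApoE-/-NPRC-/- 2 (-1.17). In ApoE-/-NPRC-/- 2, Ms4a1 had 0 counts, Blk 8, Cd79b 17, Cd79a 30 and Pax5 47. How far this library carries the correlations over the 7 libraries was not tested. These correlations are descriptions, since the genes share libraries and depth.

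Cd22 correlated more closely with macrophage genes than with the other B cell genes. Its correlation with the other 8 B cell genes was 0.590, and 0.606 without ApoE-/- 2. It was 0.969 with the mean of 7 macrophage genes on loci of their own (Adgre1, Csf1r, Cd14, Lyz2, C1qa, C1qb and Fcgr1), and 0.968 without ApoE-/- 2. For Lyz2, the lysozyme of myeloid cells, the levels were 662.25, 973.11, 1411.29, 1543.97 and 477.85 FPKM in ApoE-/- 1 to 5 and 807.4, 287.11 and 219.68 FPKM in ApoE-/-NPRC-/- 1 to 3. ApoE-/- 3 and 4 were high and ApoE-/-NPRC-/- 2 and 3 low, as for Cd22. Among the other B cell genes the correlation with the macrophage mean was highest for Cd79b, at 0.770, and lowest for Fcer2a, at 0.144. Without ApoE-/- 2 it was 0.884 for Cd79b, above the 0.802 of that gene with the other B cell genes. It was then 0.728 for Blk, 0.714 for Ms4a1, 0.688 for Cd79a and 0.639 for Pax5, and 0.127 for Cr2, 0.085 for Bank1 and -0.149 for Fcer2a. Over those 7 libraries Ms4a1, Cd79a, Cd79b, Pax5 and Blk varied with the macrophage genes as well as with each other. The part of macrophage RNA in the Cd22 result was not tested.

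**Figure D3:**
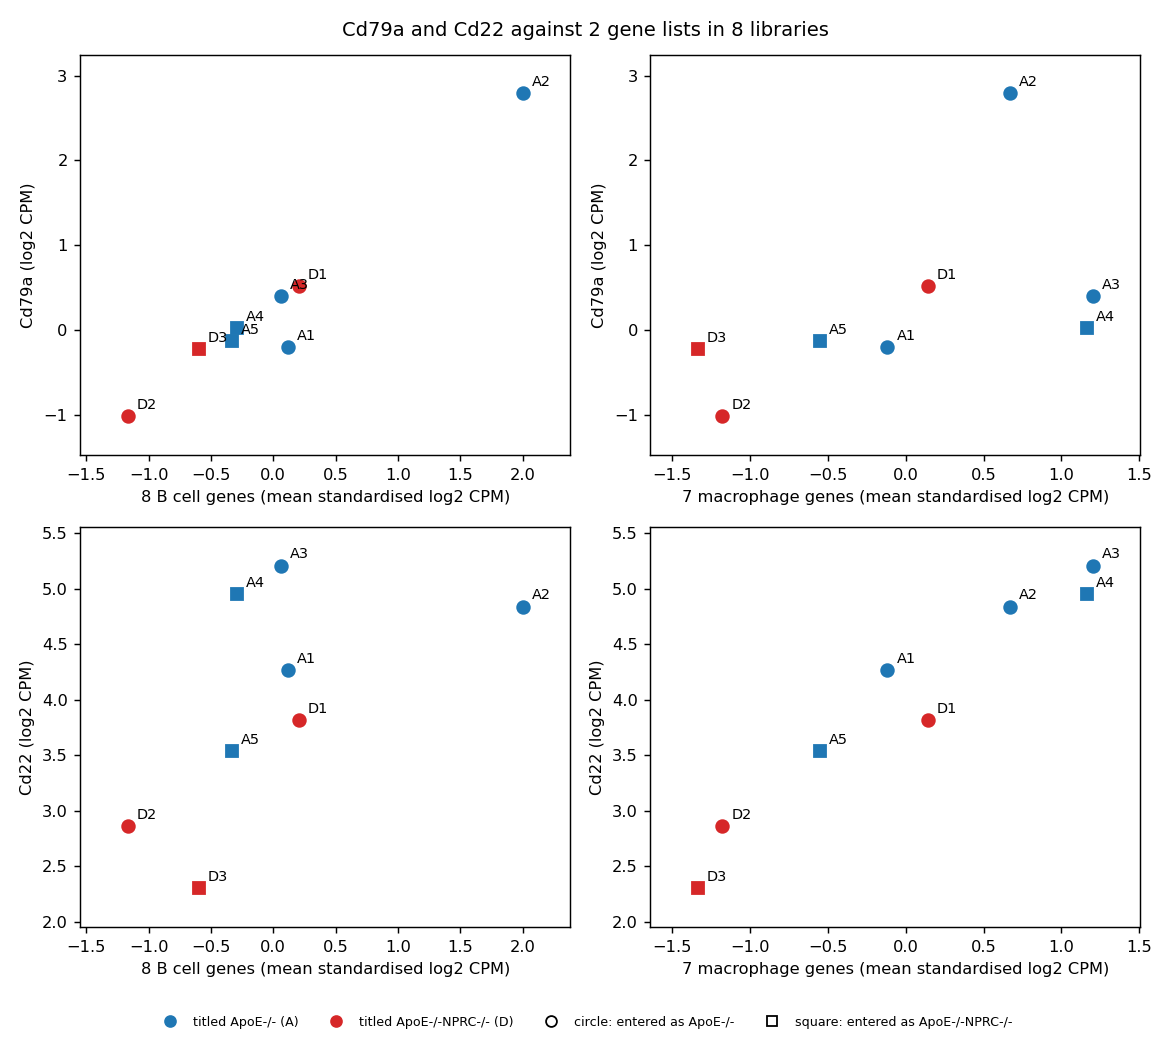
Log2 CPM of Cd79a (top) and Cd22 (bottom) in each library against the mean standardised log2 CPM of the 8 B cell genes without Cd22 (left; Cd79a is 1 of them) and of 7 macrophage genes (right); colour gives the title and shape the genotype entry. Cd22 lies along a line with the macrophage genes, with A3 at 5.21 and D3 at 2.3 log2 CPM, whereas A2 stands apart from the other libraries for Cd79a at 2.79 log2 CPM.

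Of 9 macrophage genes, 3 were called lower by title, namely C1qa, C1qb and Fcgr1, and 0 by genotype entry. Their summed level ran from 709 to 2210 FPKM in libraries titled ApoE-/- and from 340 to 1120 FPKM in those titled ApoE-/-NPRC-/-. Of 10 T cell genes, 3 were called lower by title (Cd3e, Cd4 and Cd28), with summed levels of at most 17.1 FPKM in libraries titled ApoE-/- and of 5.61 to 9.44 FPKM in those titled ApoE-/-NPRC-/-. By genotype entry 0 T cell genes were called lower and 1, Cd8a, was called higher. Of 6 dendritic cell genes, 3 were called lower by title (Ccr7, Flt3 and Xcr1). The 7 smooth muscle genes had positive fold changes by title with 0 called, and summed levels of 1310 to 1750 FPKM against 1680 to 2900 FPKM. For the 5 endothelial genes, 0 were called and the median log2 fold change was -0.05. The part of these other cells in the B cell gene values was not tested.

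ApoE-/- 2 was also high for genes of other tissues. It was the highest library for 5 of 6 white fat genes, for instance Adipoq, the adipocyte hormone adiponectin, at 114.21 FPKM against 18.15 to 72.26 FPKM elsewhere. It was also the highest for the 3 erythroid loci, including the alpha globin locus Hba-a1 at 605.05 FPKM against 44.55 to 387.88 FPKM. The same held for 7 of 10 T cell genes and 4 of 5 lymphoid stroma genes. By contrast it was the highest for 0 of 9 macrophage genes, 0 of 7 smooth muscle genes, 1 of 5 brown fat genes and 1 of 5 endothelial genes. For the lymphoid stroma list the level of Ltb, the lymphotoxin beta chain, was 4.46 FPKM in ApoE-/- 2 and 0.31 to 1.77 FPKM elsewhere. Ccl19, a chemokine of lymphoid stroma, was at 6.49 FPKM in ApoE-/- 2 and 2.15 to 5.06 FPKM elsewhere, and Ccl21a was not highest there. Madcam1, an addressin of mucosal lymphoid vessels, was listed at 0 in 6 libraries and at 0.18 FPKM in ApoE-/- 2. Of the fat and erythroid loci 0 were called under either label, and of 5 lymphoid stroma genes 1, Cxcl13, was called lower by title. Whether fat, blood or lymphoid tissue attached to the vessel took part in the level of the B cell genes was not tested.

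**Figure D4:**
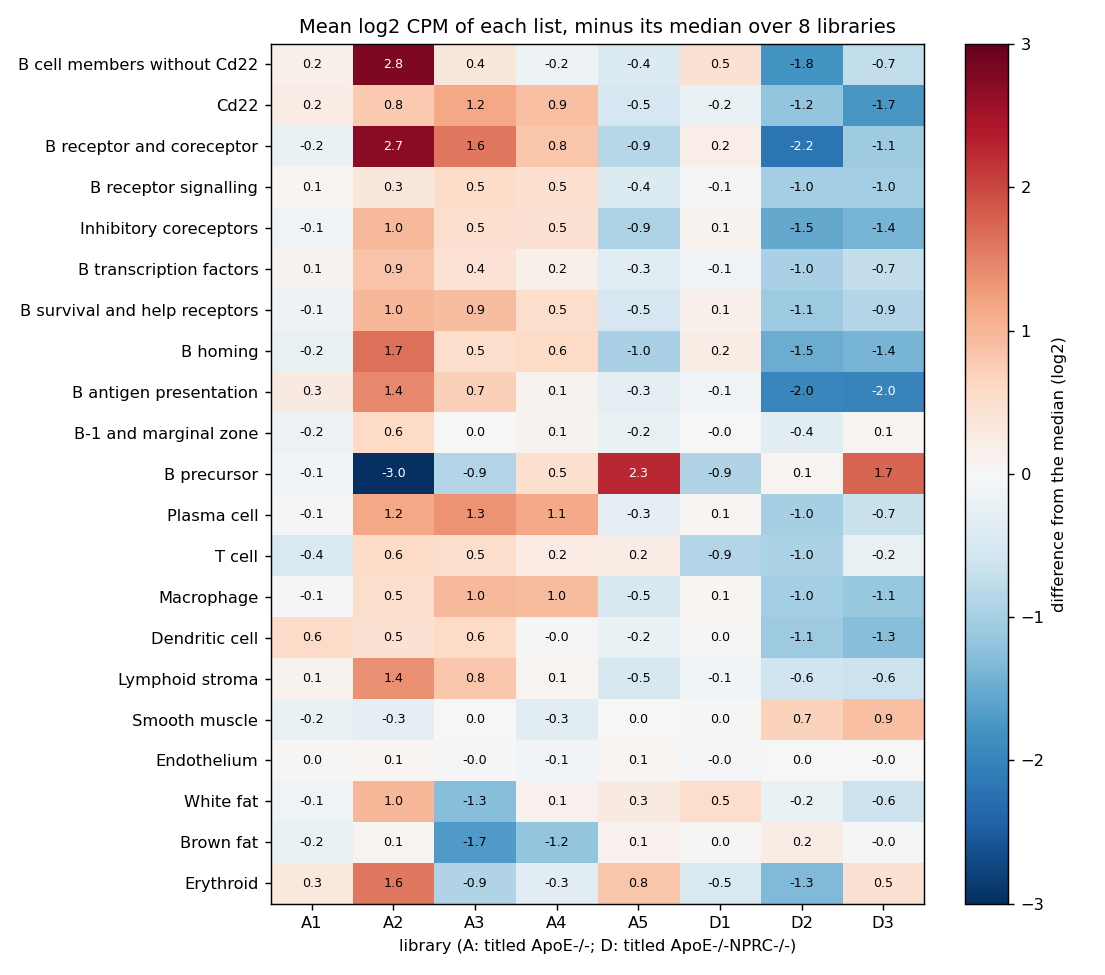
Mean log2 CPM of each gene list in each library minus the list's median over the 8 libraries (A: titled ApoE-/-, D: titled ApoE-/-NPRC-/-; colour scale from -3 to 3). The first row, the B cell genes without Cd22, is highest in A2, the row of Cd22 resembles that of the macrophage genes, and the B precursor row is lowest in A2 and highest in A5 and D3.

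Other genes of the B lineage were examined as 9 lists with 74 tested loci. The locus of Tnfsf13 among them also holds Cd68, and is counted with the macrophage genes as well. By title, 27 of the 74 were called lower and 0 higher, which is 36.5% against 3.74% of tested loci called lower. Without ApoE-/- 2, 18 were called lower, against 1015 of the 31970 loci tested in that fit. By genotype entry, 3 were called lower and 2 higher, against 148 and 241 of the 31983 tested loci. The median log2 fold change was -0.96 by title and -0.31 by genotype entry.

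Which of these 74 loci varied with the B cell genes and which with the macrophage genes depended in part on ApoE-/- 2. Over the 8 libraries, 23 correlated more closely with the 8 B cell genes without Cd22, 44 more closely with the macrophage genes, and 7 negatively with both, such as Ebf1 (-0.889 and -0.635), a transcription factor of B cells. Without ApoE-/- 2, a count added after seeing the data, they were 13, 53 and 8. Of the 27 called lower by title, 5 were closer to the B cell genes and 22 to the macrophage genes over the 8 libraries. Without ApoE-/- 2 these were 2 and 25. Fcrla, an Fc receptor-like protein of B cells, correlated at 0.892 with the B cell genes and 0.553 with the macrophage genes over the 8 libraries, and at 0.488 and 0.662 without ApoE-/- 2. The genes named here were chosen after their values were seen. Some genes that myeloid cells use as well as B cells were closer to the macrophage genes either way. They included Btk, the kinase below the B cell receptor, at 0.982 and 0.983 with the macrophage genes and 0.626 and 0.658 with the B cell genes. Fcgr2b, the inhibitory IgG receptor, was at 0.984 and 0.984 against 0.553 and 0.698. Closer to the B cell genes either way were Fcmr, the receptor for IgM, at 0.985 and 0.965 against 0.508 and 0.546, and Spib, a transcription factor of B cells, at 0.945 and 0.925 against 0.757 and 0.835.

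Of the 5 tested loci of the receptor and coreceptor list, 2 were called lower by title, those that hold Ighm and Igkc.

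Of the 13 receptor signalling genes, 5 were called lower by title, among them Btk, Blnk, Vav1 and Pik3ap1, and 0 by genotype entry. Btk was measured at 2.79, 4.28, 4.32, 4.33 and 2.01 FPKM in ApoE-/- 1 to 5 and at 2.5, 1.03 and 0.84 FPKM in ApoE-/-NPRC-/- 1 to 3, so that the groups overlapped through ApoE-/- 5 and ApoE-/-NPRC-/- 1. Its log2 fold change by title was -1.29 ± 0.43, with an unadjusted edgeR p of 0.0147. Of the 9 inhibitory coreceptor genes, 3 were called lower by title (Fcgr2b, Fcrla and Ptpn6).

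Of the 14 transcription factors, 4 were called lower by title (Pou2af1, Ikzf3, Irf8 and Spi1). Pou2af1, a coactivator of immunoglobulin genes, was at 0.24, 2.13, 0.61, 0.31 and 0.07 FPKM in ApoE-/- 1 to 5 and at 0.20, 0.03 and 0.07 FPKM in ApoE-/-NPRC-/- 1 to 3, and was not called without ApoE-/- 2. Spib had a log2 fold change of -2.36 ± 1.18 by title and an unadjusted edgeR p of 0.0754. Ebf1, which B cells share with fat and stromal cells, ran the other way, with its lowest level of 2.2 FPKM in ApoE-/- 2 and 3.15 to 9.54 FPKM elsewhere. Its log2 fold change by title was 0.40 ± 0.47, and that of Foxo1 was 0.40 ± 0.23, the largest of the 74, on a locus with 3 gene names.

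Of the 9 survival and help receptor genes, 4 were called lower by title (Tlr9, Ly86, Tnfrsf13b and Cd40). Tnfrsf13c, the BAFF receptor of mature B cells, was at 1.15 FPKM in ApoE-/- 2 and at 0 to 0.22 FPKM elsewhere, and was not called. Of the 6 homing genes, 3 were called lower by title (Cxcl13, Ccr7 and Cxcr4). Cxcl13, the chemokine that draws B cells into follicles, was at 0.99, 3.24, 1.35, 1.46 and 0.29 FPKM in ApoE-/- 1 to 5 and at 0.47, 0.17 and 0.22 FPKM in ApoE-/-NPRC-/- 1 to 3. Its log2 fold change was -2.34 ± 0.72 and it was called without ApoE-/- 2 as well. Its receptor Cxcr5 was at 1.4 FPKM in ApoE-/- 2 and 0.25 to 0.36 FPKM elsewhere, with a log2 fold change of -0.55 ± 0.60.

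Of the 8 antigen presentation genes, 5 were called lower by title (Cd74, H2-DMb2, H2-Ob, Ciita and Cd37). Cd74, the invariant chain of class II molecules, was the most abundant gene of this list, with 126.67 to 241.12 FPKM in libraries titled ApoE-/- and 29.56 to 85.08 FPKM in those titled ApoE-/-NPRC-/-. H2-Oa had a log2 fold change of -2.35 ± 1.29 and was not called. Fcmr was at 3.43 FPKM in ApoE-/- 2 and 0.04 to 0.31 FPKM elsewhere, and 73.0% of its summed CPM was in that library. It was called lower by genotype entry (-2.97, unadjusted edgeR p 0.0487) and not by title. Without ApoE-/- 2 its log2 fold change by genotype entry was -1.11 ± 0.69 (unadjusted edgeR p 0.147), and it was not called. Of the 7 B-1 and marginal zone genes, 1 was called lower by title (S1pr3), and Dtx1, Bhlhe41 and Zbtb32 had positive log2 fold changes of 0.11 to 0.29.

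The B precursor genes had an order of their own. Of 6 genes, 3 passed the filter, namely Rag1 and Rag2, the recombinase of antigen receptor genes, and Dntt, which adds bases at the joins. Igll1, a surrogate light chain gene of B cell precursors, was listed at 0 in the 8 libraries, and Vpreb1 and Vpreb3 were at 0.19 FPKM or less. Dntt was measured at 0.21, 0, 0.16, 0.47 and 1.65 FPKM in ApoE-/- 1 to 5 and at 0.08, 0.19 and 1.01 FPKM in ApoE-/-NPRC-/- 1 to 3. ApoE-/- 5 and ApoE-/-NPRC-/- 3 were the highest, and ApoE-/- 2, the highest for the B cell genes, was listed at 0. Rag1, on a locus it shares with another gene name, was at 3.32 FPKM in ApoE-/- 5, 2.42 FPKM in ApoE-/-NPRC-/- 3 and 0.3 to 0.88 FPKM elsewhere.

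By genotype entry Rag1 and Dntt were called higher, with log2 fold changes of 2.12 ± 0.45 and 3.00 ± 0.86 and unadjusted edgeR p values of 0.00114 and 0.00692 (adjusted p 1.0 for both). By title their log2 fold changes were 0.34 ± 0.84 and -0.10 ± 1.30. Developing T cells use the same genes, and Cd8a, a coreceptor of T cells, was likewise highest in ApoE-/- 5 and ApoE-/-NPRC-/- 3, at 1.5 and 1.4 FPKM, and at 0.29 to 0.79 FPKM elsewhere. It was called higher by genotype entry, with a log2 fold change of 1.32 ± 0.39 and an unadjusted edgeR p of 0.00823. The part of T cells in the Rag1 and Dntt values was not tested.

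**Figure D5:**
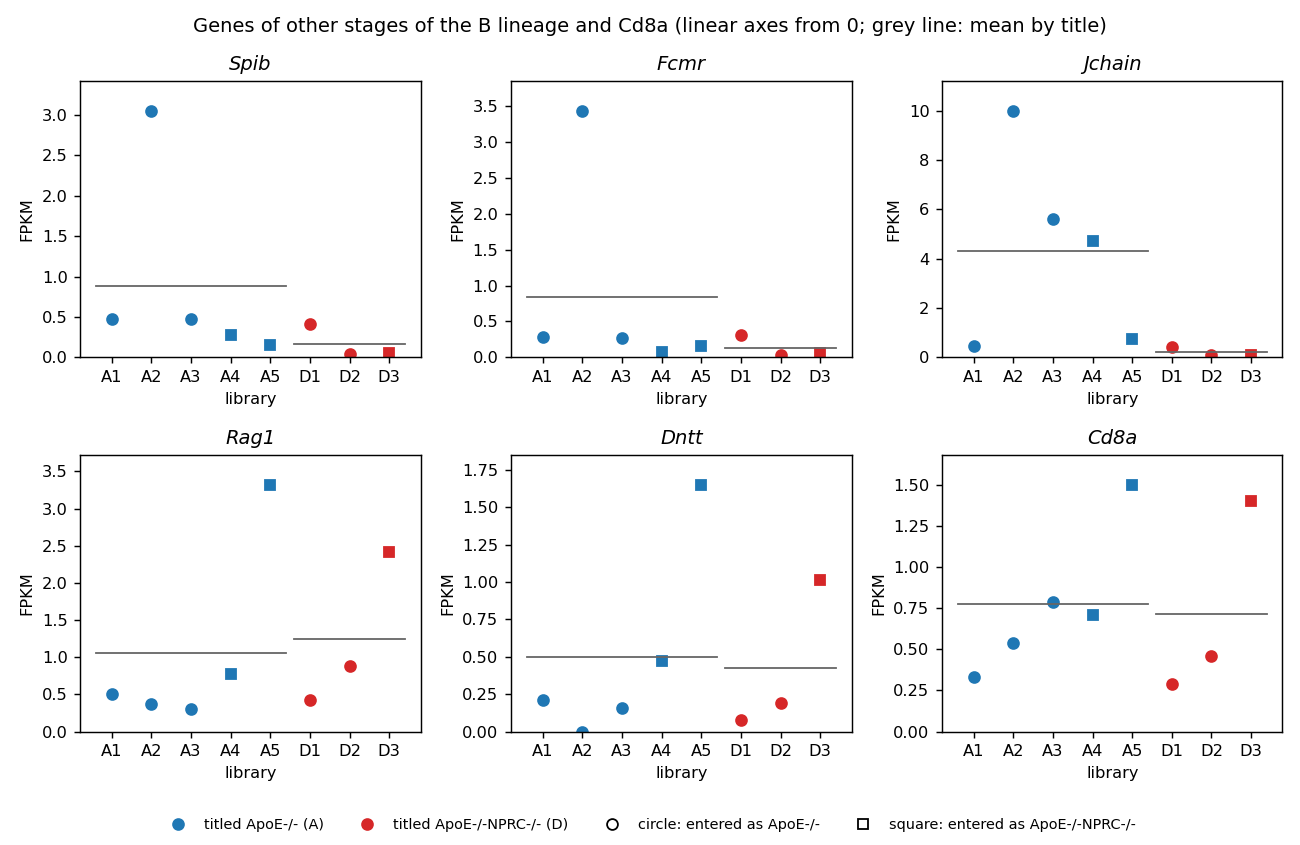
Level in FPKM (linear axis from 0) of genes of mature B cells (Spib, Fcmr), of antibody assembly (Jchain), of antigen receptor rearrangement (Rag1, Dntt) and of T cells (Cd8a) in each library; colours, shapes and grey lines mark the title, the genotype entry and the mean by title. Spib and Fcmr peak in A2, Jchain is high in A2, A3 and A4, and Rag1, Dntt and Cd8a peak in A5 and D3.

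Among 21826 loci with 1 gene name, the 15 most like the mean of the 9 B cell genes over the 8 libraries had Pearson correlations of 0.943 to 0.985. They included, in falling order, Ifi214, Tmem163, Fcmr, Acap1, Spib, Zfp831, Apol7c, Gm2682, Tspan32, Fcamr, Gm43388, Zdbf2, Ripor2 and Btla. Several are genes of lymphocytes, such as Btla, an inhibitory receptor of B and T cells, at 1.85 FPKM in ApoE-/- 2 and 0.09 to 0.75 FPKM elsewhere. Some lay near 0 in most libraries, such as Ifi214, at 0.2 FPKM in ApoE-/- 2 and 0 to 0.04 FPKM elsewhere. Over the 7 libraries without ApoE-/- 2, the correlations of these 15 were 0.804 to 0.971. When the 15 most alike were chosen over those 7 libraries, 7 of the 15 were the same. The likeness is a description over 8 libraries that share their depth.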

How the data were processed

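Poly(A) RNA from whole aortas was sequenced, and the 8 libraries of the deposit were used. The methods give 5 aortas for each genotype, whereas by title the deposit holds 5 and 3. Per the labels and methods, the authors trimmed reads with cutadapt 1.9, checked them with FastQC, mapped them to GRCm38 with HISAT2 and assembled them with StringTie. They deposited whole-number counts per locus, without normalization, and FPKM, normalized by the authors to transcript length and mapped fragments. How counts were derived, and whether strand was used, is not given in the sources used here. The GO and KEGG columns were not used, and 0 columns of values lacked a sample.

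The 9 members and the marker lists were chosen with earlier results of these data known. Loci with a mean count of at least 10 over the 8 libraries (31983 of 48607) were tested, because a minimum FPKM removes most of these low genes. R 4.3.3 and edgeR 4.0.16 gave TMM scaling and quasi-likelihood tests, and p-values were adjusted over all tested loci by the Benjamini-Hochberg method; standard errors follow from the fold change and its F statistic. Log2 CPM used a prior count of 2. The biological coefficient of variation was 0.435 by title and 0.472 by genotype entry. Alternatives used DESeq2 1.42.0 and limma 3.58.1, other scalings, filters and pseudocounts, a replicate block, and each library left out. The test was tested on simulated data. No 2 libraries agreed within sampling noise, and the series text gives 1 mouse per library. Named genes are the 9 members, the other B lineage genes called by title or with the 6 largest or smallest fold changes, the 15 most alike loci and the most abundant genes of each list; Tnfrsf13c, Cxcr5, Dntt, Cd8a, Jchain, Hba-a1, Ltb, Ccl19 and Madcam1 were named after their values were seen. Ighm and Ighd share 1 locus with other immunoglobulin genes, as does Igkc. Promoter windows come from RefSeq (GRCm38.p6). Intervals and floors cover counting error only. Some genes that the naming rule covers are not reported here.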

Additional observations from a re-analysis of the deposited data

Results flagged for a closer look

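In groups of 5 libraries, the gap of the highest or lowest library to its nearest neighbour was set against the group's range on the log2 CPM scale, for the 9 genes and the mean of each list under both labels. Of 60 groups examined, 5 exceeded Dixon's 95% critical value of 0.71, where chance alone gives about 3.

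Cd79a in ApoE-/- 2, at 2.79 log2 CPM, lay far above the other libraries titled ApoE-/-, the nearest of which was at 0.40. Blk in ApoE-/- 2, at 2.83 log2 CPM, stood above the nearest at 0.74. Cr2 in ApoE-/- 2, at 4.47 log2 CPM, stood above the nearest at 1.44. The mean of the 9 B cell genes in ApoE-/- 2 was 3.68 log2 CPM, with the nearest library at 1.53. The mean of the 5 brown fat genes in ApoE-/- 3, at 4.48 log2 CPM, lay below the nearest of the other libraries entered as ApoE-/-, at 5.97.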

How the results depend on the processing

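Of the 9 log2 fold changes by title, 8 stayed below 0 under every alternative run, and Cr2 was 0.16 without ApoE-/- 2. With 1 of 9 genes called by title, DESeq2 called 3, limma on log2(FPKM + 0.1) 2, limma on log2(FPKM + 1) 0 and no filter on low values 2. Over all loci those fits called 1946, 1190 and 188 of 31983, and 2287 of 44689 without the filter. With 1 of 9 called by genotype entry, DESeq2 called 3 and limma 0 with either pseudocount. A minimum of 1 FPKM in 3 libraries, which only Cd79b and Cd22 pass, gave 0. Over all loci DESeq2 called 407 of 31983 by genotype entry. The median by title was -0.29 with limma on log2(FPKM + 1), whose pseudocount exceeds most of these levels. Other B lineage calls by title went from 27 to 42 in the 4 libraries whose labels agree (3 against 1, with the lone library assumed to vary like the others), to 7 with limma on log2(FPKM + 1) and to 5 by genotype entry.

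Calls over all loci by title, 1730, became 2980 in those 4 libraries, 712 with the FPKM minimum, 188 with limma on log2(FPKM + 1) and 389 by genotype entry. By genotype entry they became 95 with the FPKM minimum, 202 and 26 with limma (pseudocounts 0.1 and 1) and 785 without a filter. The causes were not tested. By title 0 loci had an adjusted edgeR p under 0.05 and 4121 an unadjusted p under 0.05, while DESeq2 gave 1030 and 4972.

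Leaving out 1 library gave 1 to 3 called genes by title (3 without ApoE-/- 5 or ApoE-/-NPRC-/- 1), a median of -2.08 to -0.29, 10 to 44 other B lineage calls (10 without ApoE-/-NPRC-/- 2, 12 without ApoE-/-NPRC-/- 3, 16 without ApoE-/- 3) and 1057 to 3086 calls over all loci. The Cr2 value by title ran from -2.08 to 0.16. By genotype entry leaving out 1 library gave 0 to 5 called genes and 332 to 695 calls over all loci. The 5 were called without ApoE-/-NPRC-/- 2, in a fit with 574 calls over all loci. Cd22 by title stayed called in each of these fits, with log2 fold changes of -2.07 to -1.25. The deviations of same-numbered libraries correlated at -0.225, -0.077 and 0.019, against -0.095 to 0.176 for libraries of different numbers. So few values cannot decide whether the numbers pair the libraries. With the replicate block in 6 libraries 1 gene was called, with a median of -1.79 and 1760 calls over all loci, against 4 genes and 2003 calls in the same 6 libraries without it. With the counts of all loci of a name summed, an alternative chosen after seeing the data, 1 gene was called under either label. Ms4a1, with 0 to 156 counts outside ApoE-/- 2, had the largest standard error of the 9 genes.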

Other observations

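Jchain and the loci that hold Ighm and Igkc separated from Cd79a, Cr2 and Pax5 in 2 libraries. Jchain, which joins IgM and IgA into polymers, was measured at 0.47, 10.0, 5.59, 4.73 and 0.73 FPKM in ApoE-/- 1 to 5 and at 0.44, 0.12 and 0.11 FPKM in ApoE-/-NPRC-/- 1 to 3. ApoE-/- 2, 3 and 4 were high, whereas Cd79a, Cr2 and Pax5 were high in ApoE-/- 2 alone among these. Not all B cell genes did so, since Cd22 was highest in ApoE-/- 3, and Cd79b was at 1.89 and 1.21 FPKM in ApoE-/- 3 and 4. Nor did the plasma cell genes move as 1 set. ApoE-/- 2 was the highest library for 2 of the 7, Jchain and Mzb1, and ranked 6 for Tnfrsf17. The locus that holds Ighm and Ighd was at 12.8, 11.6 and 9.79 FPKM in ApoE-/- 2, 3 and 4 and at 0.5 to 1.48 FPKM in the other 5 libraries, and the locus that holds Igkc was at 50.85, 55.9 and 42.21 FPKM against 0.47 to 3.68 FPKM. Reads of single immunoglobulin genes on these loci cannot be separated here.

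By title, Jchain had a log2 fold change of -4.25 ± 1.15, the Ighm locus -3.23 ± 0.92 and the Igkc locus -4.28 ± 1.38, with unadjusted edgeR p values of 0.00496, 0.00678 and 0.0125. Of 7 plasma cell genes, 3 were called lower by title (Jchain, Mzb1 and Prdm1) and 0 by genotype entry. By genotype entry the same loci had log2 fold changes of -0.78, -0.47 and -0.52, with ApoE-/- 4 then in the other group. The correlation with the macrophage genes over the 8 libraries was 0.945 for the Ighm locus and 0.955 for the Igkc locus, against 0.637 and 0.635 with the 8 B cell genes without Cd22. Without ApoE-/- 2 these values were 0.966 and 0.969 against 0.437 and 0.489.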
